A study of Mus musculus with 8 samples.

Results

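Interferon-stimulated genes are transcribed when an interferon binds its receptor at the cell surface, and their products block viral replication and tune the innate response. They were followed here in mouse skin 1 day after a high dose of radiation. The set was chosen by name and holds 32 genes, each of which matched 1 row of the 22564 genes in the deposited table, so that all members were present. The mice were male C57Bl/6 animals, 4 weeks old and kept under SPF conditions. The irradiated group is skin from areas given 1 dose of 35 Gy with a 6-MeV electron beam at 750 cGy per min and taken 24 h later, with 4 libraries. The nonirradiated group is skin from areas outside the field, also with 4 libraries. The sources used here do not say whether both areas came from the same mice, whether animals were pooled, or that each library is a separate animal, so a p-value here speaks of the scatter among libraries, some of which may be technical.

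Type I interferons act through a receptor with an Ifnar1 and an Ifnar2 chain, whose kinases phosphorylate Stat2. Phosphorylated Stat2 and Irf9 act within the complex ISGF3, which binds the interferon-stimulated response element (ISRE) in target promoters. Interferon gamma acts through a separate receptor and the gamma-activated site (GAS). In damaged cells the pathway can be started by nucleic acid in the cytosol, through cGAS (Mb21d1) and STING (Tmem173) for DNA and through RIG-I (Ddx58) and MDA5 (Ifih1) for RNA.

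The promoters of members were searched for the ISRE and the GAS. RefSeq promoters of build GRCm38.p6, each running from 250 bases before to 50 after a transcription start, were held for 25 of the 32 members. Zbp1, Rtp4, Mx1, Mx2, Usp18, Parp14 and Dhx58 had no entry. The ISRE was searched on both strands as GAAA, any 2 bases, then GAAA again, and matches were allowed to overlap each other and the other motif. It was found for 12 of the 25 genes, or 48%, beside 3.99% of all 27025 genes. Counted by promoter, it was in 37.5% of the members' promoters and in 3.44% of all 32851. The 12 genes were Bst2, Ddx58, Eif2ak2, Gbp2, Gbp3, Ifih1, Ifit1, Ifit3, Isg15, Oas1a, Rsad2 and Stat2. The GAS, searched as TTCNNNGAA with N for any base, was found for 7 of the 25 genes (Bst2, Eif2ak2, Ifi35, Ifit2, Irf1, Isg20 and Oas1a) or 28%, beside 9.55% of all genes, and in 21.9% of the members' promoters beside 8.30% of all. Below, in lower case and 5′ to 3′ on the strand of the gene, are 3 members with an ISRE match in capitals, Oasl2, which had none and whose change in limma was the highest of the members, and B2m, the class I antigen presentation gene described further on.
Isg15 (chr4:156200769-156201068, minus strand): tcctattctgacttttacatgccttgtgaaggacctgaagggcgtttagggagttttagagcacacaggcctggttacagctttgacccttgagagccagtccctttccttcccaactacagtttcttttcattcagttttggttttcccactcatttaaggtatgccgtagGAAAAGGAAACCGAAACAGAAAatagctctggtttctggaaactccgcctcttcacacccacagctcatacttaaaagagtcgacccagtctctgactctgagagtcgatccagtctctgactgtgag
Ifit1 (chr19:34640639-34640938, plus strand): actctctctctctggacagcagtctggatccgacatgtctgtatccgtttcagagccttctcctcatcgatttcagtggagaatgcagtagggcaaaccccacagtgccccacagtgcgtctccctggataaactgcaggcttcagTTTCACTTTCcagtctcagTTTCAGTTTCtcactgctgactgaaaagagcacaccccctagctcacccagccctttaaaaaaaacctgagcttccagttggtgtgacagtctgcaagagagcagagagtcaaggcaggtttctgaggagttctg
Stat2 (chr10:128270248-128270547, plus strand): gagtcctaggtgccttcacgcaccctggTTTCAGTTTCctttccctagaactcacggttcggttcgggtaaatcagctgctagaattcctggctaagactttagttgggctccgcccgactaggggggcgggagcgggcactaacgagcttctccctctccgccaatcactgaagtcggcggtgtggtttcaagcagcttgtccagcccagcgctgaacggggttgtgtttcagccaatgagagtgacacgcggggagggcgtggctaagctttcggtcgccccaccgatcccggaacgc
Oasl2 (chr5:114896684-114896983, plus strand): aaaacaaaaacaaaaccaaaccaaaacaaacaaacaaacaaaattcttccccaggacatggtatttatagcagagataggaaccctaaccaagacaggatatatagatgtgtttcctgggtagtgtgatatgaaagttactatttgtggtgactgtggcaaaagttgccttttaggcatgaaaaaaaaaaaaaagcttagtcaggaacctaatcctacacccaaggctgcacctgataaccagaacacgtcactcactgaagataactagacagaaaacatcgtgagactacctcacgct
B2m (chr2:122147437-122147736, plus strand): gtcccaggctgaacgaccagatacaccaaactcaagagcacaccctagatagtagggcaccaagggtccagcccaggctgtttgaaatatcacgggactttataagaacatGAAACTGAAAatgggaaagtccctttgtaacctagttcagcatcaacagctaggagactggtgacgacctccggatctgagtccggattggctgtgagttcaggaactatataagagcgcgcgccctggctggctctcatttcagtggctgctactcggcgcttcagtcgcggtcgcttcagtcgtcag
Isg15 has 3 overlapping matches, which begin between 78 and 66 bases before the start, and Ifit1 has 2 separate ones, which begin 104 and 85 bases before it. A match is a run of letters and does not show binding.

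The 8 libraries held between 5036276 and 6626648 recovered reads. A recovered read is 1 step of the deposited estimated count, which rises in steps of a size particular to the library. Between 9089 and 12721 genes had at least 1 read in irradiated libraries, against 12354 to 14450 in nonirradiated ones. Low genes tended to share a count that was typical of each library, here called the commonest low read count, which was 19.98 to 78.5 reads in irradiated and 4.16 to 15.6 reads in nonirradiated libraries, with no overlap. Reads divided by it are called units, and that they count distinct fragments is assumed, not known. In all, 16 of the 32 members rested on fewer than 10 units in the 4 irradiated libraries together, and 6 of 32 did so in the nonirradiated ones.

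The design asks which RNAs change in skin within a day of the dose. Among the interferon-stimulated genes, 0 of 32 members rose and 0 fell in limma on log2(FPKM + 1) with Benjamini-Hochberg adjustment over 13324 genes (FPKM, fragments scaled for transcript length and for the size of the library). Of all genes tested, 0.12% were called higher and 0.128% lower. All 32 members passed the filter of a mean of at least 0.5 FPKM. Of these, 18 lay above 0 and 14 below, against 43.9% of all genes above 0, and their median log2 change was 0.03 beside -0.11 for all genes. At an unadjusted limma p under 0.05, 1 member was higher (Oasl2) and 3 were lower (Isg20, Irf1 and Oas1a), that is 3.13% and 9.38% of members, where 5.68% and 7.21% of all genes were higher and lower. The only member whose groups did not overlap in FPKM was Isg20, lower in irradiated skin, or 3.13% of members where 4.48% of all genes did so. No member stood apart in FPKM in the other direction, where 3.99% of all genes did.

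Tests on reads called at most 1 member. edgeR on recovered reads could test 26 members and called 0, where 0.602% of all genes were called higher and 0.48% lower. At an unadjusted p under 0.05 it placed 0 members either way, beside 4.85% of all genes higher and 5.48% lower. edgeR on units tested 11 and called 0, where 5.13% of all genes were called higher and 3.88% lower, and at an unadjusted p under 0.05 it placed 0 members, beside 11.7% and 10.5% of all genes. DESeq2 on reads tested 31 and called 1, Isg20, as lower (adjusted p = 0.0239), where 2.4% of all genes were called lower and 2.26% higher; at an unadjusted p under 0.05 it placed 2 members higher, Rsad2 and Eif2ak2, and 2 lower, Isg20 and Oas1a, or 6.45% of members each way, beside 5.77% of all genes higher and 6.76% lower.

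The precision differed widely between members. The 95% interval of the log2 change in limma lay within -1 to 1 for 2 members, Ifih1 and Parp14, and reached 1 or more for 22 of the 32. For those 22 the interval did not exclude a log2 change of 1.

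**Figure D1:**
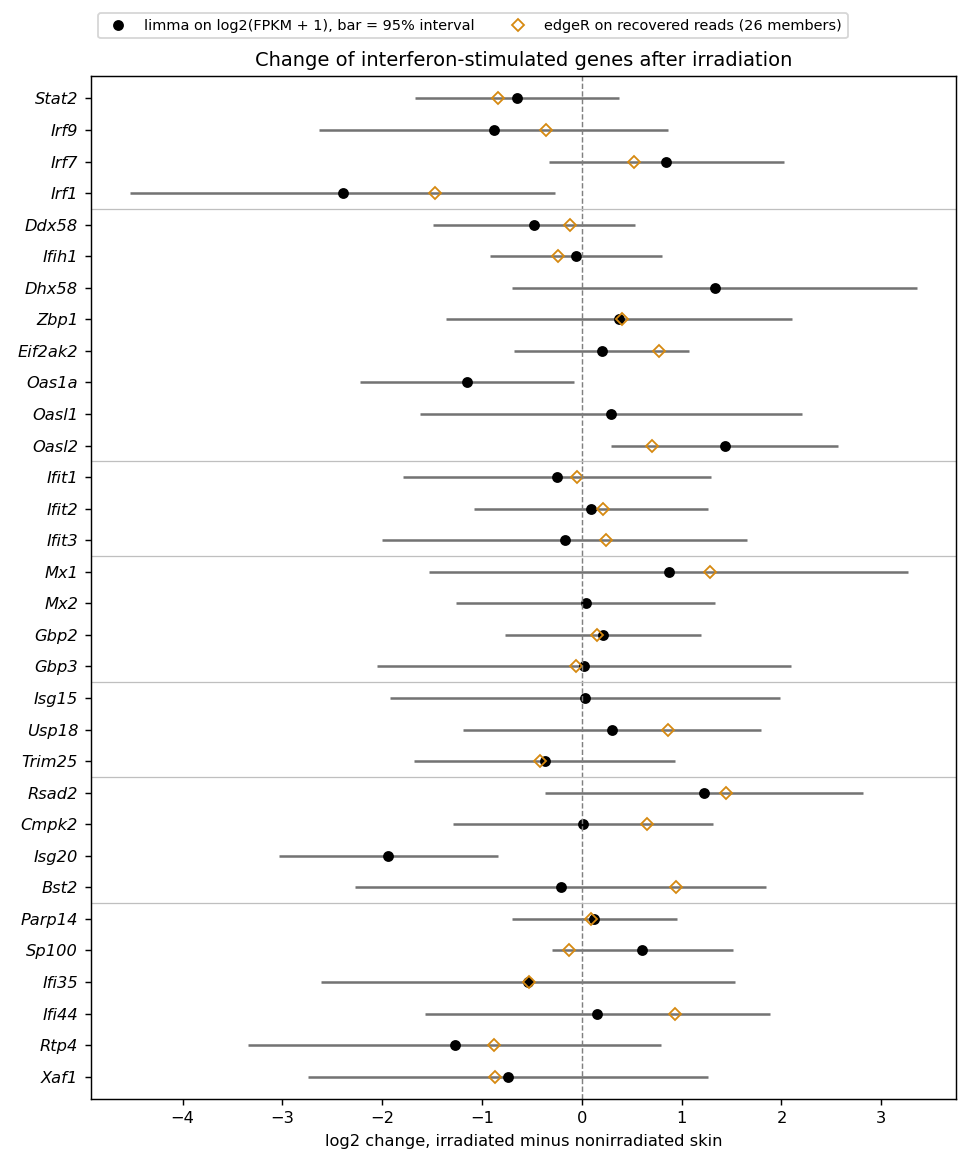
Log2 change of each member, irradiated minus nonirradiated skin (x axis), with members in rows grouped by role. Black points with grey bars are limma on log2(FPKM + 1) with 95% intervals, from 4 against 4 libraries, and open orange diamonds are edgeR on recovered reads for the 26 members it could test; most bars cross 0, with Isg20, Irf1, Oas1a and Oasl2 as the 4 exceptions.

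The parts of ISGF3 that the set holds were not higher in irradiated skin. Stat2, the subunit that carries the transactivation domain, was at 5.85, 5.16, 5.42 and 2.29 FPKM in irradiated replicates 1 to 4 and at 8.25, 7.12, 5.36 and 10.3 FPKM in nonirradiated replicates 1 to 4. Irradiated replicates 2 and 4 lay below every nonirradiated library, and replicates 1 and 3 lay just above nonirradiated replicate 3. Its log2 change in limma was -0.65 with an SE of 0.46 (adjusted p = 0.596). Irf9, which gives ISGF3 its DNA binding, was at 16.7, 11.0, 8.76 and 0 FPKM in irradiated and at 12.6, 11.4, 11.9 and 10.0 FPKM in nonirradiated libraries. The nonirradiated values were close together and the irradiated ones spread to both sides of them. The limma log2 change was -0.88 with an SE of 0.79 (adjusted p = 0.684), and 0.03 without irradiated replicate 4, the library with 0 reads. Irf9 overlaps Rnf31 on the same strand, so its reads are uncertain.

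Irf7 and Irf1 are the other transcription factors of the set, and neither passed the test. Irf7, the master regulator of interferon alpha genes and itself induced by ISGF3, was at 50.2, 8.37, 14.6 and 36.3 FPKM in irradiated and at 18.8, 11.6, 11.2 and 7.78 FPKM in nonirradiated libraries. Irradiated replicates 1 and 4 stood above every nonirradiated library and the other 2 fell among them. The log2 change was 0.85 with an SE of 0.53 (limma adjusted p = 0.545). It was -0.08 with irradiated replicates 1 and 4 left out and 0.04 with the level of skeletal muscle markers as a covariate. Several of those markers had groups apart themselves (Myh1 at 3.37, limma adjusted p = 0.0208), so the covariate and irradiation cannot be fully told apart. In reads Irf7 was at 229, 45, 220 and 228 in irradiated and at 236, 85, 112 and 35 in nonirradiated libraries, so that nonirradiated replicate 1 had as many as the highest irradiated ones. Irf1, an early target of interferon gamma, was at 0, 6.92, 25.0 and 0 FPKM in irradiated and at 20.7, 12.6, 17.7 and 27.5 FPKM in nonirradiated libraries. It had no read in irradiated replicates 1 and 4, and irradiated replicate 3 lay among the nonirradiated ones. The log2 change was -2.39 with an SE of 0.96 (limma adjusted p = 0.331), from 10 units in irradiated and 78 in nonirradiated libraries. The irradiated libraries held fewer units in all, and at the nonirradiated rate they would have held 15.3 units of Irf1. With irradiated replicates 1 and 4 left out the log2 change of Irf1 was -0.47. Irf1 overlaps Gm17334, and Irf7 overlaps Phrf1, on the opposite strand, and the sources used here do not say whether counting used strand.

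The sensors of viral RNA were measured at moderate levels in both groups. Ddx58 (RIG-I), which detects RNA ends with a triphosphate, was at 13.9, 18.8, 11.8 and 3.87 FPKM in irradiated and at 16.1, 12.5, 12.7 and 20.8 FPKM in nonirradiated libraries. Its groups overlapped and irradiated replicate 4 was the lowest of all 8 (log2 change -0.48, SE 0.46, limma adjusted p = 0.701). Without that library the change was -0.06. Ifih1 (MDA5), which detects long double-stranded RNA, was at 24.2, 23.1, 20.3 and 8.50 FPKM in irradiated and at 15.4, 21.1, 13.7 and 26.4 FPKM in nonirradiated libraries. With 60 units in irradiated and 334 in nonirradiated libraries it was among the best sampled members. At the nonirradiated rate the irradiated libraries would have held 65.7 units. The log2 change of Ifih1 was -0.06 with a 95% interval from -0.92 to 0.80 (limma adjusted p = 0.965). The sign turned without irradiated replicate 4 (0.26) and without nonirradiated replicate 4 (0.10). Dhx58 (LGP2), a relative that tunes both, was at 10.2, 1.32, 13.2 and 0 FPKM in irradiated and at 0.817, 4.09, 0 and 0 FPKM in nonirradiated libraries. Irradiated replicates 1 and 3 exceeded the rest, on 6 units in irradiated and 4 in nonirradiated libraries, where 0.787 irradiated units were expected at the nonirradiated rate. The log2 change was 1.33 with an SE of 0.92 (limma adjusted p = 0.585).

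Among the other sensors and the effectors they switch on, Eif2ak2 (PKR), a kinase that halts translation when it binds double-stranded RNA, was at 9.47, 10.0, 20.7 and 22.7 FPKM in irradiated and at 12.1, 18.5, 9.85 and 11.4 FPKM in nonirradiated libraries. The groups overlapped (log2 change 0.20, SE 0.40, limma adjusted p = 0.868; -0.0019 without irradiated replicate 4). In reads they were apart, at 359, 344, 401 and 747 against 198, 270, 310 and 217, and edgeR on reads gave a log2 change of 0.77 (adjusted p = 0.485). Zbp1, a sensor of left-handed nucleic acid that can trigger necroptosis, ranged from 0 to 6.80 FPKM in irradiated and from 0 to 4.46 FPKM in nonirradiated libraries.

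Oasl2, a member of the oligoadenylate synthetase family, had the highest log2 change of the set in limma on FPKM, while Rsad2 had the highest in edgeR on reads. It was at 35.2, 10.3, 13.7 and 31.98 FPKM in irradiated and at 14.1, 3.48, 6.52 and 6.35 FPKM in nonirradiated libraries. The irradiated libraries lay above 3 of the 4 nonirradiated ones, and nonirradiated replicate 1 lay among the irradiated ones. The log2 change was 1.43 with an SE of 0.51 (limma adjusted p = 0.277), and the mean was 22.8 ± 12.6 against 7.60 ± 4.53 FPKM (SD, n = 4 each). In reads the libraries held 338, 160, 222 and 242 in irradiated and 246, 62, 141 and 100 in nonirradiated skin, and edgeR gave 0.70 (adjusted p = 0.779). The FPKM value of 1 read of Oasl2 differed by up to 2.86-fold between libraries, and its part in the difference between the fits was not tested. In limma the change was 0.72 without irradiated replicates 1 and 4. It was 0.27 with skeletal muscle markers, several of which had groups apart themselves, as a covariate. Its neighbour Oasl1, which restrains translation of Irf7 mRNA, was at 13.9 FPKM in irradiated replicate 3 and at 0 in the other 3 irradiated libraries, with 0 to 1.84 FPKM in nonirradiated ones. Oas1a, which makes the 2-5A messenger that activates RNase L, had no read in any irradiated library and was at 3.25, 1.63, 0 and 1.16 FPKM in nonirradiated ones.

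Oas1a and Isg20 are the members with no read in a whole group. Isg20, an exonuclease that degrades single-stranded RNA, was at 0 FPKM in each irradiated library and at 7.47, 2.69, 1.31 and 1.98 FPKM in nonirradiated replicates 1 to 4. Its nonirradiated reads were 52, 15, 9 and 9. Isg20 had a limma log2 change of -1.94 with an SE of 0.50 (adjusted p = 0.136), and Oas1a of -1.15 with an SE of 0.48 (adjusted p = 0.352); both depend on the pseudocount and are no bound. Each had 10 units in the nonirradiated libraries together, a rate at which the irradiated libraries would have held 1.97 units. The limit that a count of 0 allows, 3 units over the irradiated group, equals 15.3 units at the depth of the nonirradiated group, so neither difference was detectable in units at this depth. Among all genes tested, 2.6% had no read in any irradiated library, beside 2 of 32 members (6.25%). Oas1a shares 98.7% of its transcript with Oas1g at 97% identity or more, so its reads are uncertain.

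**Figure D2:**
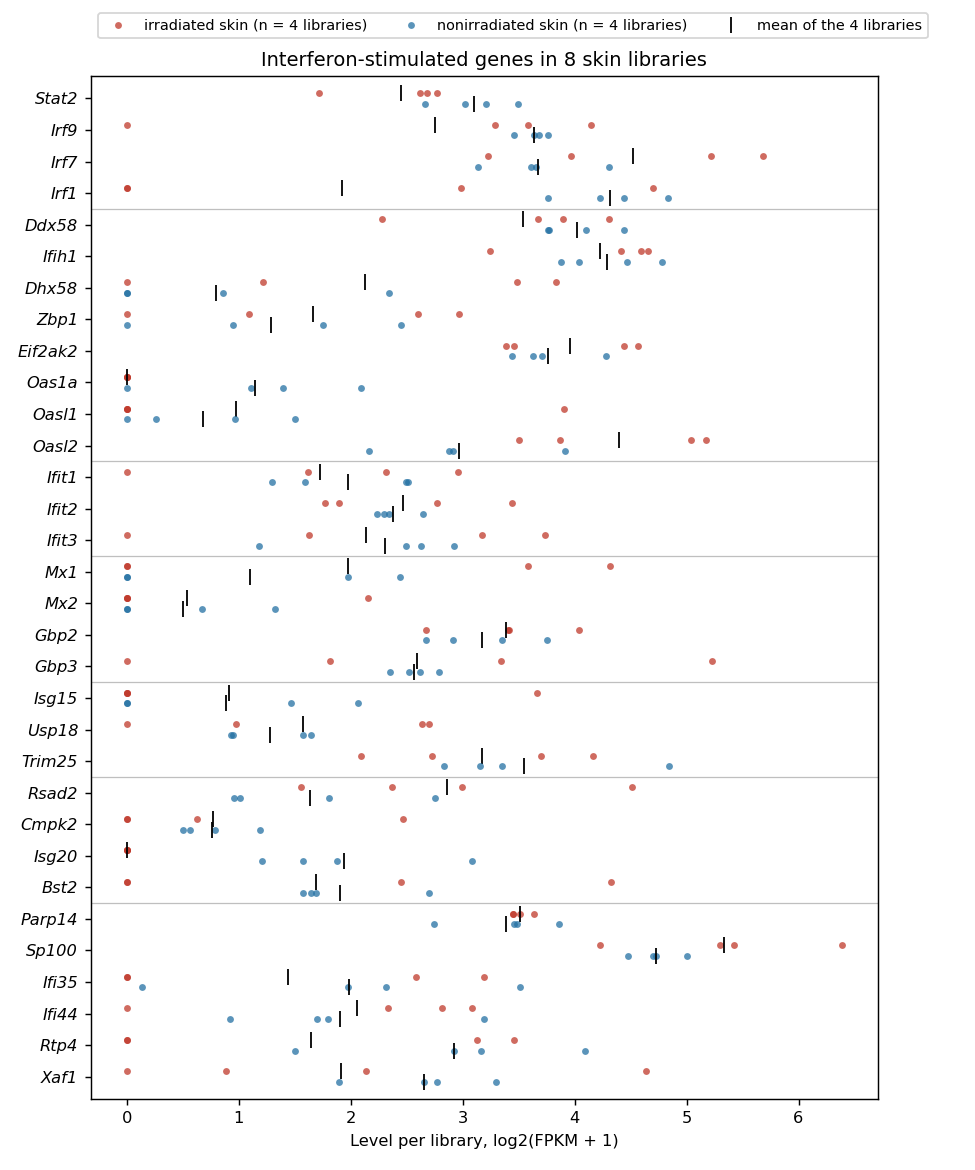
Level of each member in each library, as log2(FPKM + 1) on the x axis, with members in rows grouped by role. Red points are the 4 irradiated and blue points the 4 nonirradiated libraries, and black ticks are group means; the colours overlap in every row except Isg20, and red points at 0 stand beside red points above the blue ones in many rows.

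The IFIT proteins, which bind foreign RNA caps and block its translation, lie side by side on chromosome 19. Ifit1 (34640871 to 34650009) was at 3.99, 2.08, 6.79 and 0 FPKM in irradiated and at 4.70, 1.47, 2.01 and 4.64 FPKM in nonirradiated libraries, with means of 3.21 and 3.20. Ifit2 ranged from 2.41 to 9.86 FPKM in irradiated and from 3.70 to 5.26 FPKM in nonirradiated libraries. Ifit3, of which 97.4% is shared with its copy Ifit3b, ranged from 0 to 12.3 and from 1.27 to 6.60 FPKM. For all 3 the irradiated range enclosed the nonirradiated one.

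Of the antiviral GTPases, Mx1, Mx2 and Gbp3 had irradiated libraries with 0 reads and Gbp2 had none. Mx1, whose allele in most inbred laboratory mice, C57BL/6 among them, lacks coding exons, was at 0, 18.9, 11.0 and 0 FPKM in irradiated libraries and between 0 and 4.42 FPKM in nonirradiated ones. Mx2, its paralog, was above 0 reads in 1 irradiated library, at 3.46 FPKM, and reached 1.51 FPKM in nonirradiated ones. Gbp2, a guanylate-binding protein that attacks the vacuoles of intracellular pathogens, ranged from 5.38 to 15.5 FPKM in irradiated and from 5.39 to 12.5 FPKM in nonirradiated libraries. Gbp3 was at 36.4, 9.12, 2.51 and 0 FPKM in irradiated libraries and between 4.10 and 5.91 FPKM in nonirradiated ones. Its value of 36.4 FPKM came from 109 reads and that of 9.12 FPKM from 101 reads.

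Isg15, the ubiquitin-like modifier that is usually among the most strongly induced genes of the response, was at 0, 0, 11.7 and 0 FPKM in irradiated and at 0, 0, 3.19 and 1.77 FPKM in nonirradiated libraries. It thus had 0 reads in 3 of 4 irradiated and 2 of 4 nonirradiated libraries. Its protease Usp18, which also shuts off the type I receptor, ranged from 0 to 5.49 FPKM in irradiated and from 0.911 to 2.13 FPKM in nonirradiated libraries. Trim25, the ubiquitin ligase that activates RIG-I, ranged from 3.27 to 17.0 FPKM and from 6.15 to 27.7 FPKM.

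Rsad2 (viperin) and Cmpk2 stand head to head on chromosome 12 and supply an antiviral nucleotide. Rsad2 was at 1.94, 4.17, 6.95 and 21.8 FPKM in irradiated and at 1.02, 5.73, 2.50 and 0.949 FPKM in nonirradiated libraries. The groups overlapped, with a limma log2 change of 1.22 and a 95% interval from -0.37 to 2.81 (adjusted p = 0.514). Its reads were 64, 125, 213 and 156 against 29, 65, 61 and 29, with a log2 change of 1.44 in edgeR (adjusted p = 0.661). Cmpk2 was at 0, 4.53, 0.545 and 0 FPKM in irradiated and between 0.420 and 1.28 FPKM in nonirradiated libraries. Bst2 (tetherin), which holds budding virions at the cell surface, was at 0, 0, 4.46 and 19.1 FPKM in irradiated and between 1.99 and 5.51 FPKM in nonirradiated libraries.

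Sp100, a component of nuclear PML bodies, had the highest mean level of the set. It was at 82.8, 17.7, 41.9 and 38.3 FPKM in irradiated and at 21.2, 25.0, 25.5 and 31.1 FPKM in nonirradiated libraries. All irradiated libraries but replicate 2 lay above the nonirradiated ones in FPKM (log2 change 0.61, SE 0.41, limma adjusted p = 0.577), and the change was 0.25 without irradiated replicate 1. In reads they did not, at 425, 228, 573 and 248 against 294, 376, 374 and 379, and the log2 change in edgeR was -0.13 (adjusted p = 0.994). Parp14, an ADP-ribosyl transferase, kept a narrow range in irradiated skin, at 11.5, 9.93, 10.4 and 9.95 FPKM in irradiated and 5.69, 10.2, 10.0 and 13.5 FPKM in nonirradiated libraries. Its log2 change of 0.13 had a 95% interval from -0.70 to 0.95 (limma adjusted p = 0.923).

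Ifi35, Ifi44, Rtp4 and Xaf1 complete the set. Ifi35 ranged from 0 to 8.11 FPKM in irradiated and from 0.0980 to 10.4 FPKM in nonirradiated libraries, and Ifi44 from 0 to 7.51 and from 0.897 to 8.16 FPKM. Rtp4, a chaperone of receptor transport that overlaps Masp1 on the opposite strand, ranged from 0 to 10.0 and from 1.84 to 16.1 FPKM. Xaf1, an antagonist of the apoptosis inhibitor XIAP, ranged from 0 to 23.9 and from 2.72 to 8.83 FPKM. The lowest limma adjusted p of these 4 was 0.609, for Rtp4.

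Irradiated libraries differed widely in how many members had 0 reads. Members with 0 reads numbered 11, 7, 3 and 17 in irradiated replicates 1 to 4 and 2, 3, 3 and 3 in nonirradiated replicates 1 to 4. Of all genes tested, 8.50% to 32.4% had 0 reads in an irradiated library and 2.33% to 11.0% in a nonirradiated one. At least 1 read in every library was found for 12 members. Together the members took 766 ± 124 of every 1e6 reads in irradiated skin and 721 ± 40.9 of them in nonirradiated skin (SD, n = 4 each), so their summed share overlapped between groups. Their mean log2(FPKM + 1) was 2.33, 2.54, 2.79 and 1.63 in irradiated replicates 1 to 4 and 2.65, 2.32, 2.33 and 2.35 in nonirradiated replicates 1 to 4. The order of the irradiated libraries in this mean was the reverse of that in members with 0 reads. The part of sampling depth in the changes of single members was not tested.

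**Figure D3:**
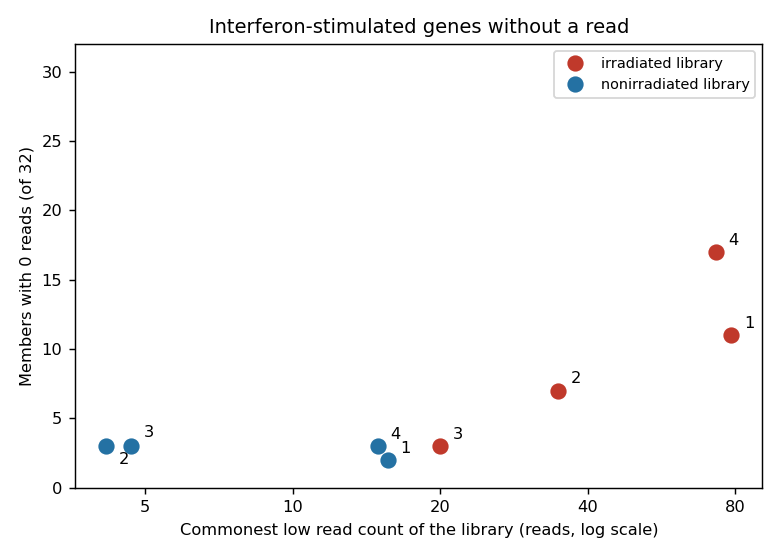
Number of the 32 members with 0 reads (y axis) against the commonest low read count of the library (x axis, reads, log scale), with 1 point per library labelled by replicate, red for irradiated and blue for nonirradiated skin. Irradiated replicates 1 and 4, with commonest low read counts of 78.5 and 73.1, had 11 and 17 members with 0 reads, and the 4 nonirradiated libraries had 2 or 3.

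The 12 members with an ISRE match in the promoter had log2 changes with a median of -0.12, with 5 above 0, and the 13 members with a promoter but no match had a median of 0.01, with 7 above 0. The 7 members without a promoter entry, which can be placed in neither group, had a median of 0.30, with 6 above 0, and no test was made between the groups. Isg15 and Ifit1, whose promoters are printed above, were at log2 changes of 0.03 and -0.25.

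The steps before the set were examined through lists named from general knowledge of the pathway. The 10 interferon ligand genes were all in the table, and 9 of them, Ifnb1 and Ifng among them, had 0 reads in all 8 libraries. The tenth, Ifna2, had 28 reads, or 1 unit, in irradiated replicate 3. Of the 10 receptor and signal transduction genes tested, 0 were called in limma, 5 lay above 0 and the median log2 change was 0.04, ranging from -0.28 to 0.15 with 1 library left out. Ifnar1, with 0 reads in irradiated replicate 4, had a log2 change of -0.69 (adjusted p = 0.759) and of 0.24 without that library, and Ifnlr1, the specific chain of the interferon lambda receptor, of -1.32 (adjusted p = 0.361) in limma.

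Of 15 nucleic acid sensing genes tested, 0 were called and 6 lay above 0, with a median of -0.04 that ranged from -0.30 to 0.22 with 1 library left out. Mb21d1 (cGAS) had a limma log2 change of -0.57 (adjusted p = 0.725) and Tmem173 (STING) of 0.18 (adjusted p = 0.944), which turned to between -0.19 and -0.01 without irradiated replicate 4, nonirradiated replicate 2 or nonirradiated replicate 3. Ticam1, the adaptor of the RNA receptor TLR3, was the 1 gene of this list with groups apart, at 0, 0, 0.548 and 0 against 2.66, 3.10, 0.638 and 1.25 FPKM (log2 change -1.29, limma adjusted p = 0.272). It rested on 1 irradiated unit, where 5.31 were expected at the nonirradiated rate, and the nearest libraries held 15 and 18 reads. Of all genes, 4.48% were apart in this direction. Of 7 genes that restrain the signal, 0 were called and 1 lay above 0, with a median of -0.26. That median was between -0.48 and -0.11 with 1 library left out, the ends being irradiated replicate 4 and nonirradiated replicate 1, and -0.09 in edgeR on reads. Socs1 had 0 reads throughout.

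A list of 48 further interferon-stimulated genes held 44 in the table and 42 tested. In limma 0 were called, 23 lay above 0 and the median log2 change was 0.08, and -0.21 without irradiated replicate 3. Ifi204, a DNA-binding protein of the PYHIN family, was at 11.3, 13.9, 13.3 and 27.3 against 7.68, 8.98, 9.01 and 3.39 FPKM (log2 change 1.07, adjusted p = 0.333). Lgals3bp, a secreted galectin ligand, was at 34.6, 27.1, 37.7 and 23.7 against 16.4, 17.3, 12.9 and 8.27 FPKM (log2 change 1.14, adjusted p = 0.165). In both genes every irradiated library was above every nonirradiated one. Gbp4, a relative of Gbp2, went the other way with groups apart, at 1.28, 3.59, 2.60 and 7.84 against 9.11, 8.39, 8.42 and 9.40 FPKM (log2 change -1.20, adjusted p = 0.361). On reads neither passed, with adjusted p of 0.293 in edgeR and 0.174 in DESeq2 for Lgals3bp and of 0.272 and 0.202 for Gbp4. With edgeR on units, a fit added after seeing the data, Lgals3bp was called higher (1.35, adjusted p = 0.00935) and Gbp4 lower (-1.30, adjusted p = 0.0374). Gbp5 (-1.24) and Oas2 (-1.36) were at adjusted p of 0.309 and 0.353 in limma. Ifitm3 had a log2 change of 0.45 (adjusted p = 0.720), and Cxcl10, a chemokine induced by interferon gamma, had 2 reads in 1 nonirradiated library and none in the others.

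Class I antigen presentation is also raised by interferon. Of its 13 genes tested in limma 0 were called over all genes and 10 lay above 0, where 43.9% of all genes did. The median log2 change was 0.58, with 0.35 without nonirradiated replicate 4 and 0.50 to 0.83 without any other library. At an unadjusted p under 0.05 there were 4 higher and 0 lower, where 5.68% and 7.21% of all genes were higher and lower. B2m, the invariant chain of class I molecules, was at 2942, 2405, 2676 and 3040.1 FPKM in irradiated and at 1924, 927, 885 and 1500.03 FPKM in nonirradiated libraries. Every irradiated library was above every nonirradiated one, with a log2 change of 1.15 and an SE of 0.26 (limma adjusted p = 0.0915). With edgeR on reads B2m rose by 1.01 (adjusted p = 0.0224), as it did with DESeq2 (adjusted p = 5.29e-06) and with edgeR on units (adjusted p = 0.000148) and, in limma, without nonirradiated replicate 1 (1.36, adjusted p = 0.0356). H2-D1, a class I heavy chain with related copies whose reads may be shared, was at 109.7 ± 20.7 against 48.5 ± 16.8 FPKM (SD, n = 4 each), with a log2 change of 1.21 (limma adjusted p = 0.103). It was not called by edgeR on reads (0.74, adjusted p = 0.143), and was called higher by DESeq2 on reads (0.79, adjusted p = 0.0333) and edgeR on units (0.79, adjusted p = 0.0383). Nlrc5, the transactivator of class I genes, was at 32.4 ± 7.53 against 11.7 ± 2.95 FPKM (SD, n = 4 each), with a log2 change of 1.38 in limma (adjusted p = 0.0949) and of 0.58 in edgeR on reads (adjusted p = 0.442). Tap1, which carries peptides to class I molecules, had a log2 change of 1.00 in limma (adjusted p = 0.324) and 0.33 in edgeR on reads (adjusted p = 0.925). Not all genes of the list were higher. In limma H2-K1 was at 0.15, and Psme2 (-1.23), Psmb9 (-0.99) and Erap1 (-0.07) lay below 0. In edgeR on reads H2-K1 (-0.07), Psme1 (-0.02), Psme2 (-0.29), Psmb9 (-0.34) and Erap1 (-0.19) lay below 0. With the level of skeletal muscle markers as a covariate the median of the list was 0.01, beside -0.33 for all genes, and 0 genes were called over the whole table. Several of the muscle markers had groups apart themselves, so this fit cannot separate muscle content from irradiation. The difference between this list and the 32 members was not tested.

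**Figure D4:**
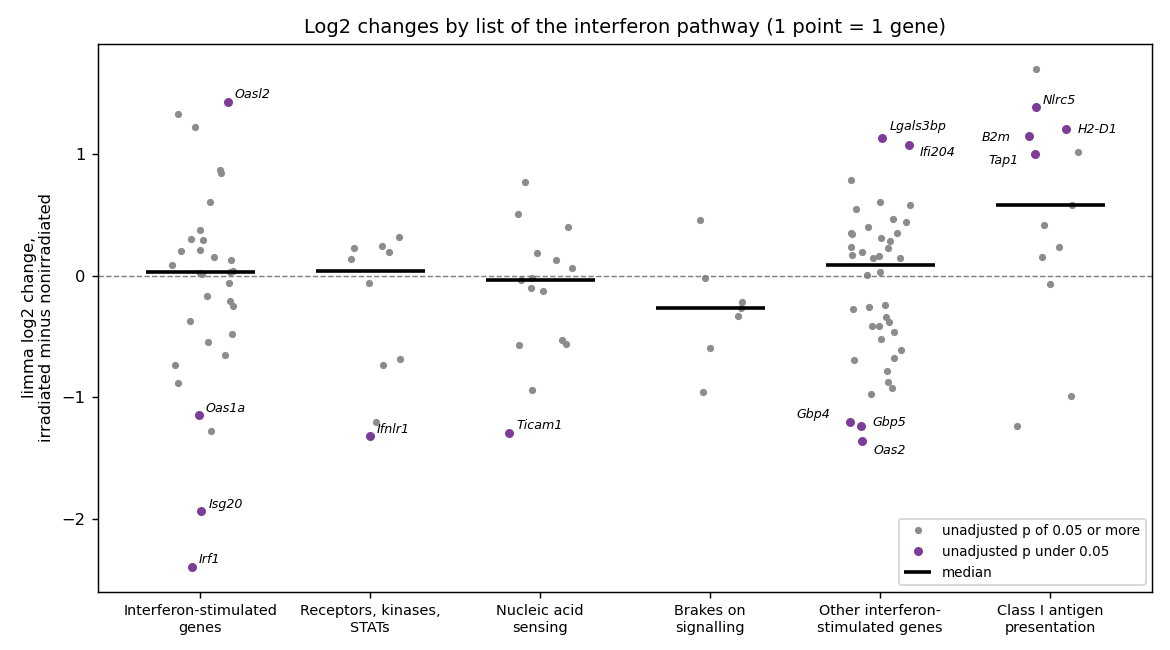
Log2 change in limma, irradiated minus nonirradiated skin (y axis), for each gene tested in 6 lists (x axis), with 1 point per gene, black lines at list medians and purple points at an unadjusted p under 0.05. The medians are 0.03 for the 32 members and 0.58 for class I antigen presentation, and the interferon ligands are not drawn because none could be tested.

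Markers of cell types were summed in FPKM to show what the bulk samples held; in such samples fewer cells of a type and less RNA per cell cannot be told apart. Keratinocyte and fibroblast markers, all 4 of 4 in each list, were present in every library. Keratinocyte sums were 1701 to 3182 FPKM in irradiated and 1188 to 1738 FPKM in nonirradiated skin (exact permutation p = 0.0571, adjusted p = 0.0952). Krt1 and Krt10 were higher with groups apart (limma log2 changes of 1.34 and 0.80, adjusted p = 0.0831 and 0.196), and Krt5 and Krt14 overlapped. On reads, Krt1 was called higher by edgeR (1.24, adjusted p = 0.0167) and DESeq2 (adjusted p = 2.45e-06). Krt10 was called higher by DESeq2 (adjusted p = 0.0132) and not by edgeR on reads (adjusted p = 0.130). The 5 general leukocyte markers, of which Cd52 had 0 reads throughout, summed to 10.6 to 14.6 FPKM in irradiated and 6.76 to 9.40 FPKM in nonirradiated libraries. Singly, none of the other 4 stood apart, with limma log2 changes of 0.08 for Ptprc, -0.14 for Coro1a, -0.22 for Laptm5 and -0.31 for Cd53. Neutrophil markers summed to 46.0 to 92.0 against 0 to 9.20 FPKM, with S100a8, also made by keratinocytes, as the 1 of them that rose in limma (adjusted p = 0.00651) and Ly6g and Mpo at 0 reads throughout. S100a9 (-0.34) and Csf3r (-0.19) had irradiated libraries at 0 and were not called. In the fibroblast list Col3a1 stood apart, at a mean of 159 against 92.7 FPKM (log2 change 0.76, limma adjusted p = 0.153), and Col1a1 and Col1a2 were at -0.00058 and -0.08. T and NK cell markers summed to 0 to 2.28 against 3.96 to 10.8 FPKM. Of these, Trac was absent, Cd3d had 0 reads throughout, and Ncr1 and Klrb1c had 5 and 3 reads, all in nonirradiated libraries. Cd3e and Cd3g had 1 unit each in the irradiated libraries, where 1.77 and 1.18 were expected at the nonirradiated rate. The T and NK cell sum was thus too sparsely sampled to show a drop. The sums of these 3 leukocyte lists and of fibroblast markers did not overlap between groups (exact two-sided permutation p = 0.0286, the smallest that 4 against 4 libraries allow, adjusted p = 0.0714 over 10 lists). Macrophage sums overlapped (exact permutation p = 0.686, adjusted p = 0.686), and Adgre1 was absent. Itgam overlapped in FPKM but was apart in reads, at 211, 152, 249 and 195 against 73, 65, 59 and 54. DESeq2 called it higher (1.58, adjusted p = 0.000979), and edgeR on reads did not (adjusted p = 0.245). Csf1r had 0 reads in every irradiated library and in 2 nonirradiated ones, with 100 and 50 in the others. Sums also overlapped for Langerhans and dendritic cells (adjusted p = 0.286), endothelium (adjusted p = 0.413) and plasmacytoid dendritic cells (adjusted p = 0.245). The defining marker Siglech of the last had reads in 1 library only. Tcf4 made up a mean of 34.8 of 35.6 FPKM in irradiated and 51.1 of 51.3 FPKM in nonirradiated skin. Skeletal muscle markers summed to 3049 to 5092 FPKM in irradiated and 1030 to 3758 FPKM in nonirradiated skin (exact permutation p = 0.0571, adjusted p = 0.0952). The muscle markers did not move together. Myh1 rose (mean 854 against 107 FPKM, log2 change 3.37, limma adjusted p = 0.0208), and Myh2, Mylpf and Mb were higher with groups apart. Myh4 was lower with groups apart (mean 133 against 467 FPKM, log2 change -1.83, limma adjusted p = 0.0912), and Acta1, Ckm and Tnnt3 overlapped. The part of these differences in the values of the members was not tested.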

How the data were processed

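Bulk RNA-seq of 8 skin libraries was analysed, 4 irradiated and 4 nonirradiated, grouped by their labels. The FPKM values and the estimated counts were deposited by the authors with 1 column for each library, as the file headers show. The submitters' processing notes name the build mm10 and the tools HISAT2 2.0.4, cutadapt 1.9.3, Cuffdiff and Cufflinks. On strand use and annotation release the sources used here give nothing.

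The members and gene lists were chosen with earlier results of these data known. Groups were compared with limma 3.58.1 (R 4.3.3; trend and robust settings) on log2(FPKM + 1). It covered 13324 genes whose mean FPKM reached 0.5, with Benjamini-Hochberg adjustment and a threshold of 0.05. A fold change on this scale understates the change of low genes. Within a library the estimated counts were divided by their step of 0.871 to 1.10, which gave whole reads within 0.02 for 92.6% to 96.6% of values below 2000 steps; all were then rounded to whole numbers. edgeR 4.0.16 (quasi-likelihood) and DESeq2 1.42.0 were run on these reads as alternatives, which assume that a read is an independent fragment. edgeR on units was added after seeing the data. The main limma fit and edgeR on reads were tested on simulated data, and DESeq2 and edgeR on units were not.

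Values in every library are given for members with an unadjusted limma p under 0.05, with groups apart, called by edgeR on reads, among the 6 of highest mean FPKM, or belonging to ISGF3 and its partners or the RNA sensors. Rsad2, Ifit1, Mx1, Gbp3, Isg15, Cmpk2, Bst2 and Parp14 were added after their values were seen. Listed pathway genes are named where the unadjusted p was under 0.05 or the groups were apart, with a few always named; 1 listed pathway gene is not reported here and was left out of its list. Positions are from GENCODE M21.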

Additional observations from a re-analysis of the deposited data

Results flagged for a closer look

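In 62 groups of 4 libraries the highest or lowest value was compared with the rest by Dixon's 95% critical value, and 7 passed. The rate of about 1 in 20 groups that chance gives does not hold where libraries have 0 reads: for Isg15, Oasl1 and Mx2 the other 3 were at 0, so that any value above 0 passes. In 5 of them 1 irradiated library stood above the others. Irradiated replicate 3 held Isg15 at 11.7 FPKM, from 67 reads or 3 units, and Oasl1 at 13.9 FPKM, from 83 reads or 4 units, with the other irradiated libraries at 0. Irradiated replicate 1 held Mx2 at 3.46 FPKM, from 71 reads or 1 unit, with the others at 0. Irradiated replicate 2 held Xaf1 at 23.9 FPKM, from 100 reads or 3 units, against 0 to 3.41 FPKM, and Cmpk2 at 4.53 FPKM, from 114 reads or 3 units, against 0 to 0.545 FPKM.

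In the nonirradiated group, replicate 1 held Bst2 at 5.51 FPKM, from 26 reads or 2 units, against 1.99 to 2.24 FPKM. Replicate 4 held Trim25 at 27.7 FPKM, from 445 reads or 30 units, against 6.15 to 9.24 FPKM.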

How the results depend on the processing

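No member was called higher under any alternative, and 1, Isg20 with DESeq2, was called lower. Over all genes, 342 were called higher and 363 lower with DESeq2 on reads, 74 and 59 with edgeR on reads, and 300 and 227 with edgeR on units. The limma counts were 3 and 6 without irradiated replicates 1 and 4, 0 and 0 with muscle markers as a covariate, and 26 lower with median ratio scaling. Leaving out 1 library gave 2 to 59 higher, with 59 without nonirradiated replicate 1, and 1 to 31 lower, with 31 without irradiated replicate 3.

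The median log2 change of the members was -0.48 with a pseudocount of 0.1, where all genes were at -0.29, and -0.12 to 0.24 with 1 library left out. With the muscle covariate the median was -0.72 for the brakes, -0.45 for the further interferon-stimulated genes and 0.014 for class I genes, where all genes were at -0.33. With a pseudocount of 0.1 it was -0.22 and 0.90 for the latter lists. With 1 library left out the further genes ranged from -0.21 to 0.17.

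Signs turned for values that passed no threshold. Without irradiated replicates 1 and 4 the log2 change was -0.077 for Irf7, 0.21 for Ifih1, 0.11 for Ifnar1 and -0.54 for Tmem173. With the muscle covariate it was 0.15 for Ifih1, -1.16 for Tmem173 and -0.49 for Ifitm3. With edgeR on units it was 0.12 for Ddx58. Sp100 was at -0.093 with DESeq2 and -0.13 with edgeR on reads. Leaving out 1 library gave ranges of -1.35 to 0.034 for Irf9, -0.20 to 0.26 for Ifih1, -0.0019 to 0.39 for Eif2ak2, -1.09 to 0.24 for Ifnar1 and -0.19 to 0.73 for Tmem173. The cause was not tested.

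With the replicate number as a block, limma called 5 genes lower and 0 members, and the median of the members was 0.03. Deviations of libraries with the same number correlated at -0.013 to 0.090, and only replicate 4 correlated best with its own number, so the numbers were not taken to pair the samples.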
